A study of Homo sapiens with 3 samples.

Results

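Of the 4513 SOX4 peaks in Hep3B cells, 200 overlapped by at least 1 bp a pseudogene other than the copies of HNRNPA1, and these 200 peaks are described here. A peak was a member when the RefSeq gene table (assembly GRCh38.p14) gave a gene under it the biotype pseudogene and a symbol other than HNRNPA1P with a number. The 200 peaks lay on 192 of the 15343 such pseudogenes, or 1.25% (Wilson 95% interval 1.09% to 1.44%), and 1.25% is the background for each family below. Hep3B is an established human hepatocellular carcinoma line. Hep3B cells, for which the labels give no treatment or edit, were profiled by CUT&RUN per the study's methods (the labels say ChIP), in which a nuclease tethered to the antibody releases the bound DNA, with 1 library each for SOX4, STAT6 and IgG, the last being a non-specific antibody used as the background. The authors called the SOX4 and the STAT6 peaks against IgG, and the fold enrichment over IgG is the level given throughout. With 1 library for each antibody there was no replicate check and no test, the read depth is unknown, and each interval covers counting error over genes or peaks only.

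SOX4 is a transcription factor of the SOX family that binds DNA through an HMG box, and STAT6 is the transcription factor activated by interleukin-4 and interleukin-13. Pseudogenes are copies of genes that have lost the coding function. Processed pseudogenes are reverse-transcribed from mature mRNA and lie scattered over the chromosomes without introns or promoter, whereas duplicated pseudogenes usually lie beside their parent gene and keep its structure. Where copies are close to each other in sequence, a read may match several of them as well as the parent. How such reads were placed is not given in the sources used here, and no sequence of the pseudogenes was used. Peaks at copies of one gene may therefore share reads and may not be independent. The Wilson intervals treat each copy as independent, so within a family they may be too narrow.

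Some member peaks reached beyond the pseudogene and held the start of a protein-coding gene. The 250 bases before the start of 3 such genes are shown as examples, 1 for each kind of gene, of a start inside a peak whose summit was outside the pseudogene. HLA-G, with 2 windows in the 137-fold peak at HCG4P8, was of the same kind as HLA-F and is not printed. The examples are the non-classical class I gene HLA-F (peak over HCG4P11 and RPL23AP1, 135-fold), the drug-metabolizing enzyme gene CYP2C19 (peak at one end of MTND4P19, 83.0-fold) and the class II gene HLA-DPA1 (peak over RPL32P1, 153-fold). The sequences are from RefSeq, GRCh38.p14, written 5′ to 3′ along the gene, and capitals mark the STAT palindrome, TTC and GAA with any 4 bases between them.
HLA-F, chr6:29723184-29723433, + strand: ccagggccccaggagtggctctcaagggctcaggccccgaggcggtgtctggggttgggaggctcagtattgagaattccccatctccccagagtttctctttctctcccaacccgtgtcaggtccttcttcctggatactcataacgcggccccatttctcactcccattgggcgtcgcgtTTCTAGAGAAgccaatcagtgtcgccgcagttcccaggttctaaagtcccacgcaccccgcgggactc
CYP2C19, chr10:94762431-94762680, + strand: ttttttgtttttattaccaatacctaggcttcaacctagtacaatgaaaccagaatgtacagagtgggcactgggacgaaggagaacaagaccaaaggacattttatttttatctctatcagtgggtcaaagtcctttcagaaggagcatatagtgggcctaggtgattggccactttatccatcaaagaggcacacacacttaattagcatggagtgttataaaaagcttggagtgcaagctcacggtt
HLA-DPA1, chr6:33080749-33080998, - strand: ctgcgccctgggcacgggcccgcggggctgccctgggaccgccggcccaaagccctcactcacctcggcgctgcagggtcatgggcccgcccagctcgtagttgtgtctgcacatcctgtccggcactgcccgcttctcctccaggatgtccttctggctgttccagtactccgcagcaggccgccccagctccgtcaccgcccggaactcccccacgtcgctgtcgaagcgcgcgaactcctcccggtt
In all, 9 RefSeq windows of 8 genes, each running from 250 bases before to 50 after a start, lay whole inside a member peak. On either strand the palindrome occurred in 1 of the 9, that of HLA-F, and in 6.44% of all 35116 windows. The SOX motif AACAAAG occurred in 0 of the 9 and in 5.20% of all windows. Only this form was counted, although the SOX4 consensus in the paper leaves some positions open to A or T. Another form allowed by it, ATCAAAG, is present in the printed CYP2C19 sequence. The count of AACAAAG therefore does not show that SOX sites were absent from these windows. The table of windows held none for a pseudogene or for RPL23A.

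By their medians the member peaks were taller and wider than the rest of the SOX4 list, in a description without a test. Their fold enrichment ran from 2.76 to 183, with a median of 23.7 and quartiles of 6.93 and 48.8, beside a median of 5.75 and quartiles of 3.83 and 11.1 for the other 4313 peaks. At 10-fold or more lay 69.5% of the members (62.8% to 75.5%) and 27.4% of the others (26.1% to 28.7%). The median −log10 q was 162 among members and 14.5 among the others, and the median width was 1346 bp against 872 bp. Widths of members ranged from 270 to 35545 bp. The summit lay inside a pseudogene in 144 of the 200 (72.0%), and 43 (21.5%, interval 16.4% to 27.7%) also touched a protein-coding gene, so that those peaks cannot be assigned to the pseudogene alone. At the edge of the rule, RNU1-146P, RPSAP31 and KRT18P13 were reached by 3, 10 and 21 bp at 7.11-, 3.93- and 4.01-fold. Just outside it, peaks ended 9, 21 and 44 bp from NUDT19P6, RPL37P2 and MTRNR2L1 at 14.9-, 3.72- and 13.5-fold.

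Other kinds of gene had higher shares with a SOX4 peak than the 1.25% of pseudogenes, and the difference was not tested. The share was 6.12% of 19879 protein-coding genes (5.79% to 6.46%) and 3.33% of 18010 long noncoding genes (3.08% to 3.6%). Gene lengths differed in the same order, with medians of 24449 bp for protein-coding genes, 9109 bp for long noncoding genes and 648 bp for pseudogenes.

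By count the largest family was RPL23A, with 57 of the pseudogenes holding a peak. Of the 192 pseudogenes with a peak, 121 have symbols that name a parent gene, and these made up 39 families of the 2186 in the table. At least 2 copies held a peak in 12 families. Among the families with the most copies holding a peak were RPL23A with 57 of 89, MTCO1 with 8 of 58, HCG4 with 5 of 7, TPMT with 4 of 4, CNTNAP3 with 4 of 8, CFTR with 3 of 3, MTND4 with 3 of 40, and SLC25A24 and VKORC1 with 2 of 2 each. Every copy held a peak in 5 of the 12, among them TPMT, CFTR, SLC25A24 and VKORC1. The copies of CYP, HLA, MIC and TSPY genes mostly carry other kinds of symbols and were grouped by prefix after their values had been seen.

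**Figure D1:**
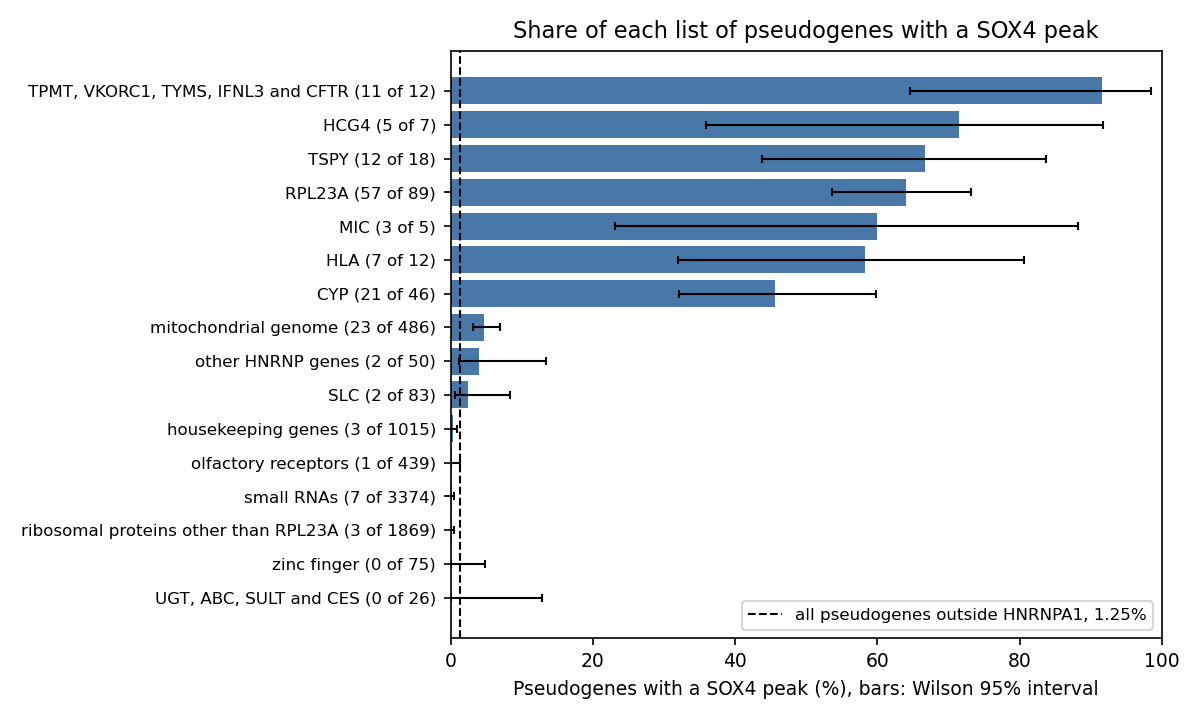
Percentage of pseudogenes with a SOX4 peak in each list (horizontal axis, 0 to 100%), with Wilson 95% intervals as bars and counts in the labels. The dashed line is the 1.25% of all pseudogenes outside HNRNPA1. The 7 lists between 45.7% and 91.7% were set up after the values had been seen. So were those of other ribosomal proteins, of SLC genes, and of UGT, ABC, SULT and CES genes. The lists of other ribosomal proteins, small RNAs, olfactory receptors and housekeeping genes lie below 1.25%. Those of zinc finger genes and of UGT, ABC, SULT and CES genes stand at 0, with intervals that reach above 1.25%.

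RPL23A, a protein of the large ribosomal subunit, accounted for 57 of the 192 pseudogenes (29.7%). Of its 89 pseudogenes 64.0% held a peak (53.7% to 73.2%), whereas of the 1869 pseudogenes of all other ribosomal proteins 3 did (0.161%, 0.0546% to 0.471%). Those 3 were RPL32P1 and RPL7AP7, which lie beside HLA genes under peaks of 153- and 116-fold, and RPSAP31, reached by 10 bp. RPL23AP1 also lay beside an HLA gene, under the HLA-F peak. It stays in the counts of copies with a peak but is left out of the levels and summit positions that follow. Enrichment at the other 56 copies ran from 7.84-fold at RPL23AP86 to 38.6-fold at RPL23AP12, with a median of 23.3 and quartiles of 19.4 and 27.6. The copies were thus alike in level, although they lay on 21 chromosomes and 15 of the 56 peaks touched a protein-coding gene. The 57 copies included 9 within 200 kb of the outermost annotated gene of a chromosome, among them RPL23AP25 at chr1:248936571-248937099, against 1 of the 32 copies without a peak and 1.08% of all pseudogenes.

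The share of RPL23A copies with a peak was higher among the longer ones. Of copies under 400 bp 1 of 8 held a peak (12.5%, 2.24% to 47.1%), and of those of 400 bp and over but under 500 bp 7 of 25 did (28%, 14.3% to 47.6%). From 500 bp to under 600 bp it was 40 of 45 (88.9%, 76.5% to 95.2%), and at 600 bp and above 9 of 11 (81.8%, 52.3% to 94.9%). The level showed no such gradient, at a median of 22.6-fold in the 8 copies under 500 bp with a peak and 23.3-fold in the 48 longer ones besides RPL23AP1. None of the 32 copies without a peak had one within 1000 bp, the nearest being 1779 bp away. In other ribosomal protein pseudogenes from 500 bp to under 600 bp, 1 of 328 held a peak (0.305%, 0.0538% to 1.71%).

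**Figure D2:**
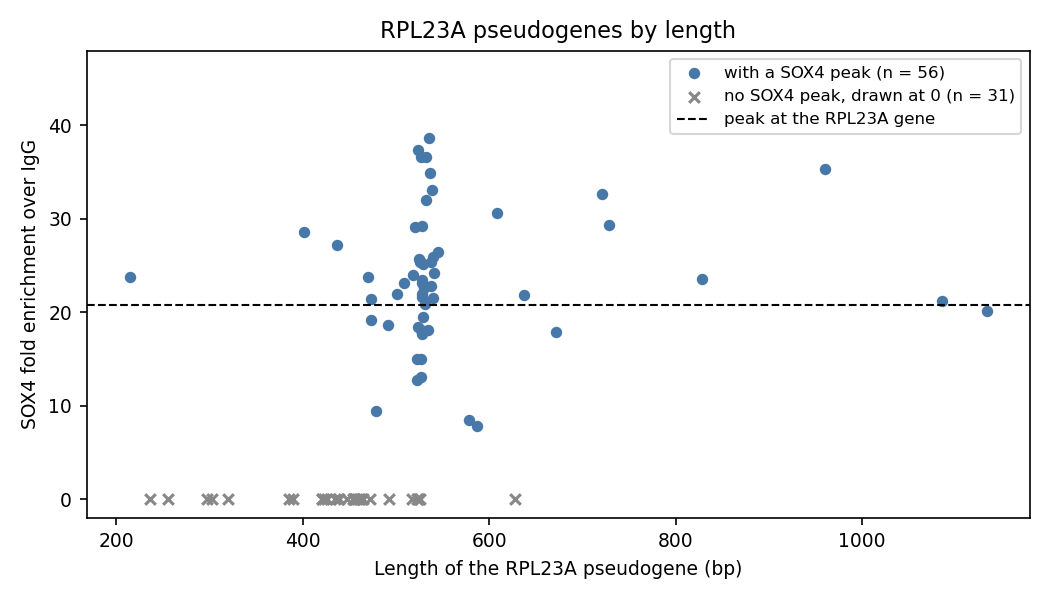
SOX4 fold enrichment over IgG (vertical axis) against the length of each RPL23A pseudogene in bp (horizontal axis). Points are the 56 copies with a peak besides RPL23AP1, crosses are 31 copies without a peak, drawn at 0 although no value was measured, and a further copy of 10798 bp without a peak is not drawn. The points cluster between 500 and 600 bp around the dashed line, the 20.8-fold peak at the RPL23A gene.

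Within most copies the summit lay near one end. Its median distance from the nearer end was 68 bp inside the copy, with quartiles of 54.8 and 86.3 bp, and it lay 199 bp from the midpoint. Only 2 of the 56 summits were within 100 bp of the midpoint and 44 were 100 to 250 bp from it. The summit was toward the end with the lower coordinate in 36 and toward the other end in 20, and the table gives no strand for pseudogenes. The peak covered the whole copy in 47 of the 56. The parent gene RPL23A (chr17:28719985-28724359) held a single peak, at chr17:28720064-28721355, of 20.8-fold and rank 853 in the SOX4 list. Its summit was 757 bp above the lowest coordinate of the gene. Of the 56 copies 40 had a higher fold enrichment than the parent. Among coding genes of ribosomal proteins, RPL23A and RPS23 were 2 of 86 with a SOX4 peak (2.33%), beside 6.12% of all coding genes. Of the RPL23A pseudogenes classed as transcribed, which the rule leaves out, 5 of 6 held a peak at 14.6- to 29.0-fold.

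TSPY genes, a testis-expressed family in tandem on the Y chromosome, held peaks in both their coding and their pseudogene members. All 7 coding genes held one, from 99.9-fold at TSPY2 to 178-fold at TSPY3. Of the 18 pseudogenes 12 did (66.7%, 43.7% to 83.7%). TSPY6P reached 124-fold and TSPY7P 105-fold, inside the range of the coding genes, while the other 10 lay between 14.8- and 36.1-fold. Over all 12 copies the range, 14.8- to 124-fold, overlapped that of the coding genes. In the 8 long copies (2729 to 2814 bp) the summit was 488 to 603 bp from one end, and in the coding genes it was 532 to 579 bp from one end. In the 4 short copies (512 to 519 bp) it lay at the end, from −51 bp (outside) to 2 bp (inside), at 28.6- to 31.7-fold. STAT6 peaks overlapped 14.2% of all SOX4 peaks, and at the TSPY pseudogenes one lay under the SOX4 peak at TSPY6P (10.4-fold for STAT6) and TSPY7P (5.69-fold) and at no other copy.

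**Figure D3:**
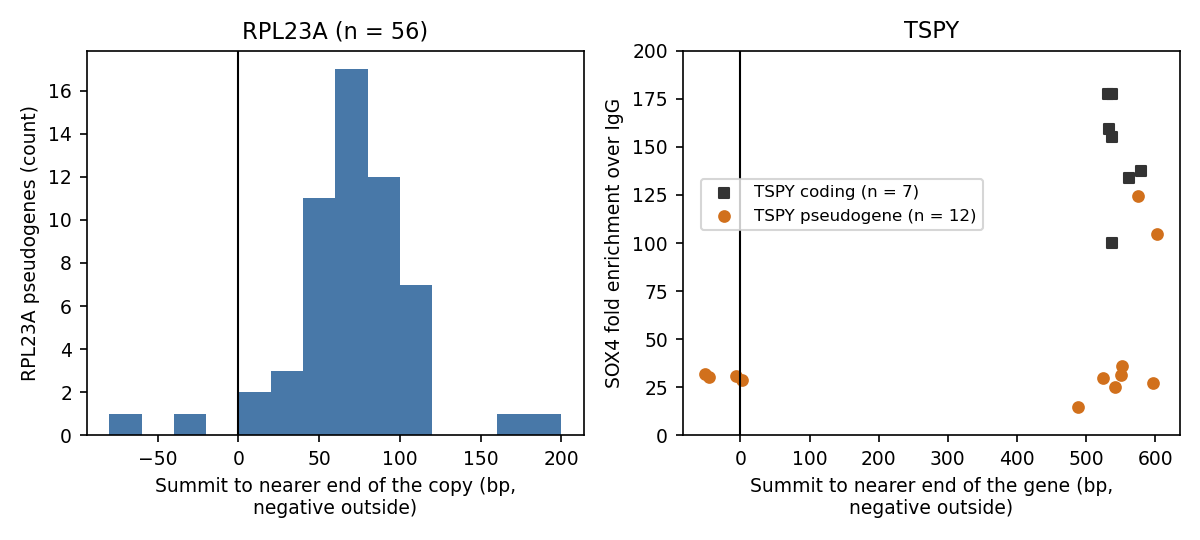
Left, number of RPL23A pseudogenes (vertical axis) by the distance of the SOX4 summit from the nearer end of the copy in bp (horizontal axis, negative values outside), for 56 copies. Right, SOX4 fold enrichment over IgG against the same distance for 7 TSPY coding genes (squares) and 12 TSPY pseudogenes (circles), where the long copies and the coding genes share distances of 488 to 603 bp.

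A second set had few copies and high enrichment. It held the copies of TPMT, VKORC1, TYMS, IFNL3 and CFTR, put together after their values had been seen. Of the 12 pseudogenes 11 held a SOX4 peak (91.7%, 64.6% to 98.5%), all with the summit inside the copy and all with a STAT6 peak. TPMT methylates thiopurine drugs, and its 4 copies stood at 154-fold (TPMTP1), 84.9-fold (TPMTP2), 63.1-fold (TPMTP3) and 40.5-fold (TPMTP4). STAT6 enrichment at the same copies was 17.4-, 6.32-, 5.06- and 3.79-fold, in the same order. The copies of CFTR, a chloride channel, stood at 101-fold (CFTRP1), 119-fold (CFTRP2) and 124-fold (CFTRP3), although they are only 383, 199 and 179 bp long. VKORC1, the vitamin K epoxide reductase, had copies at 88.4-fold (VKORC1P2) and 59.2-fold (VKORC1P1). IFNL3P1, a copy of an interferon lambda gene, stood at 116-fold. For thymidylate synthase, TYMSP2 stood at 53.6-fold while TYMSP1 held no peak. Outside this set, GSTP1P1, the single copy of the glutathione transferase gene GSTP1, reached 81.6-fold with a STAT6 peak of 6.01-fold.

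**Figure D4:**
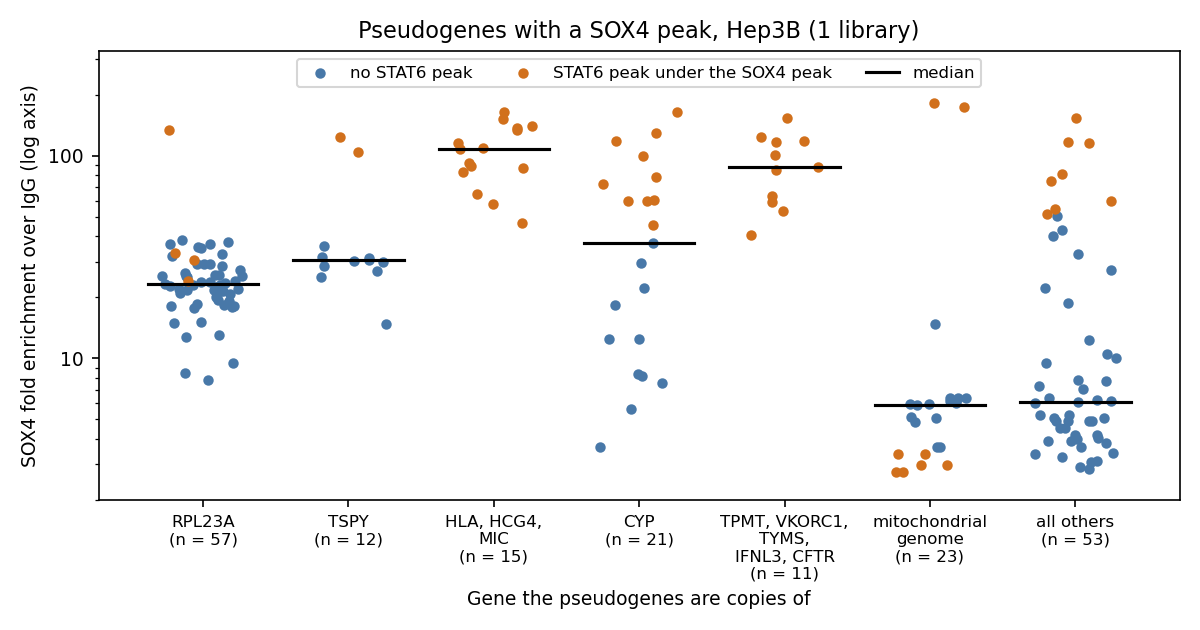
SOX4 fold enrichment over IgG (log axis) of the highest peak at each of the 192 pseudogenes, by the gene they are copies of; the black line is the median. Orange points have a STAT6 peak under the SOX4 peak, which holds for all 15 copies of HLA, HCG4 and MIC genes and all 11 copies of TPMT, VKORC1, TYMS, IFNL3 and CFTR, and for 4 of 57 RPL23A copies.

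Copies of cytochrome P450 (CYP) genes, which encode monooxygenases of drug, sterol and fatty acid metabolism, held peaks in 21 of 46 (45.7%, 32.2% to 59.8%). By subfamily these were 10 of 16 copies of CYP4F, 4 of 9 of CYP2C and 2 of 4 of CYP3A, together with CYP3AP2, CYP2A7P1, CYP2D8P, CYP2F2P and CYP2G2P. The subfamilies can be set beside their coding genes. In the 6 subfamilies with coding genes that held a peak, all 20 coding genes did and 19 of 32 pseudogenes did. The coding and pseudogene counts partly share peaks, so they are not independent. Each peak at CYP3A51P also touched the gene CYP3A7-CYP3A51P, which is counted as coding. CYP2D8P and CYP2D6 lay under the same peak. In the 3 subfamilies whose 4 coding genes held none (CYP4A, CYP46A and CYP51A), 0 of 8 pseudogenes held one. The highest copies were CYP2F2P (165-fold), CYP2D8P (130-fold) and CYP3A51P (118-fold). The 118-fold peak at CYP3A51P also touched ZSCAN25 and had its summit outside the copy. CYP2D8P lay in a single peak of 35545 bp, the widest among the members, that also spanned CYP2D6 and had its summit outside the copy. By the highest peak of each copy, the 10 CYP copies with a STAT6 peak had SOX4 enrichments of 45.4- to 165-fold. The 11 without had 3.64- to 37.2-fold. Taken by single peaks the ranges overlapped, as a further CYP4F23P peak of 48.3-fold had no STAT6 peak while the CYP3A137P peak of 45.4-fold did. Among pseudogenes of other drug-metabolism and transport genes the counts were 0 of 26 for UGT, ABC, SULT and CES genes, which allows a share of up to 11.5%, and 2 of 83 for SLC genes (2.41%). The whole list of drug metabolism and transport stood at 25 of 167 (15%).

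In the major histocompatibility complex, which holds the antigen-presenting HLA genes, 15 pseudogenes of HLA, HCG4 and MIC symbols held peaks, besides RPL23AP1, RPL7AP7 and RPL32P1 described above. They were 7 of 12 named HLA, 5 of 7 of HCG4 and 3 of 5 named MIC. Each had its own peak, 1493 to 6277 bp wide, and each peak overlapped a STAT6 peak. Enrichment ran from 46.8-fold at MICD to 164-fold at HCG4P7, with a median of 109. At the 7 HLA pseudogenes (57.8-fold at HLA-S to 116-fold at HLA-P) every summit was inside the pseudogene. All 5 HCG4 copies with a peak had the summit outside, and the peaks at HCG4P11 and HCG4P8 touched HLA-F and HLA-G. Of the coding genes 14 of 19 HLA genes (60.7- to 175-fold) and both MICA and MICB held a SOX4 peak. The design list of immunoglobulin, T-cell receptor and HLA pseudogenes had the same 7 of 52 (13.5%).

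Copies of the mitochondrial genome, fragments of mitochondrial DNA inserted into chromosomes, had low enrichment. Of 486 such pseudogenes 23 held a peak (4.73%, 3.17% to 7.0%). MTND4P19 stood apart at 174-fold, in a peak that touched CYP2C19 and had its summit outside the copy. Of the 23 copies 21 lay between 2.76- and 14.8-fold, and the summit was inside the copy in 3 of them. On chromosome 1, 4 peaks between 629175 and 634122 touched 6 adjoining copies (MTND1P23, MTND2P28, MTCO1P12, MTCO2P12, MTATP8P1 and MTATP6P1) at 2.76- to 3.37-fold with −log10 q of 96.8 to 406. Each overlapped a STAT6 peak, and the highest STAT6 peak under each stood at 2.42- to 3.03-fold. The SOX4 list also had a peak over positions 39 to 16550 of the mitochondrial genome itself, at 4.21-fold, and the STAT6 list one at 2.42-fold. At MTRNR2L2, MTRNR2L8, MTRNR2L11 and MTRNR2L12, copies of the mitochondrial ribosomal RNA region, the summit lay 190 to 492 bp beyond the copy at 5.88- to 14.8-fold.

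The 53 pseudogenes outside these groups were mostly low, with a median of 6.11-fold. The 4 CNTNAP3 copies lay between 3.37- and 4.92-fold and the copies SLC25A24P1 and SLC25A24P2 at 6.06- and 6.38-fold, and neither parent gene held a peak. Among other HNRNP genes, which encode RNA-binding proteins, 2 of 50 pseudogenes held one, HNRNPA3P8 at 50.5-fold and HNRNPA3P7 at 40.3-fold, both with the summit outside the copy. Pseudogenes of housekeeping genes held 3 in 1015 (0.296%), those of small RNAs 7 in 3374 (0.207%) and those of olfactory receptors 1 in 439 (0.228%). Their median lengths were 949, 110 and 936 bp in that order, beside 648 bp for all pseudogenes outside HNRNPA1. Zinc finger pseudogenes held 0 in 75, which allows a share of up to 4.0%.

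Among the 100 copies with a peak whose parent is in the table, most had a parent with a peak, largely through RPL23A. Counted by families, most did not. Of the 28 families with a parent in the table and a copy holding a peak, 11 had a SOX4 peak at the parent. Of the 100 copies whose parent is in the table, 78 had a SOX4 peak at the parent (78.0%, 68.9% to 85.0%), against 283 of all 7978 such pseudogenes (3.55%). Without RPL23A it was 21 of 43 (48.8%, 34.6% to 63.2%). In the other direction, 27.6% of pseudogenes whose parent held a peak had one themselves (78 of 283), and 10.8% without RPL23A (21 of 194), compared with 0.286% of those whose parent held none (22 of 7695). Parents themselves held a peak in 99 of 2125 families (4.66%), and 11 of those 99 families had a copy with a peak. Among the 11, the highest peak at the parent was 232-fold for TYMS, 172 for IFNL3, 148 for CFTR, 135 for CYP2A7, 131 for the long noncoding HCG4, 96.8 for GSTP1, 84.8 for TPMT, 79.9 for VKORC1, 20.8 for RPL23A and 11.8 for ANKRD30B. The median of the copies was above the parent for RPL23A and HCG4 and below it for the other families. The parent value was the highest of 21 peaks for CFTR, 5 for TPMT and 3 each for TYMS and ANKRD30B, while their copies held single peaks. This difference favours the parent. For HCG4 the summits lay outside the copies. A peak at the parent did not always come with one at the copy, as PRICKLE1 (150-fold) and VWF (129-fold) each had a single pseudogene, without a peak.

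**Figure D5:**
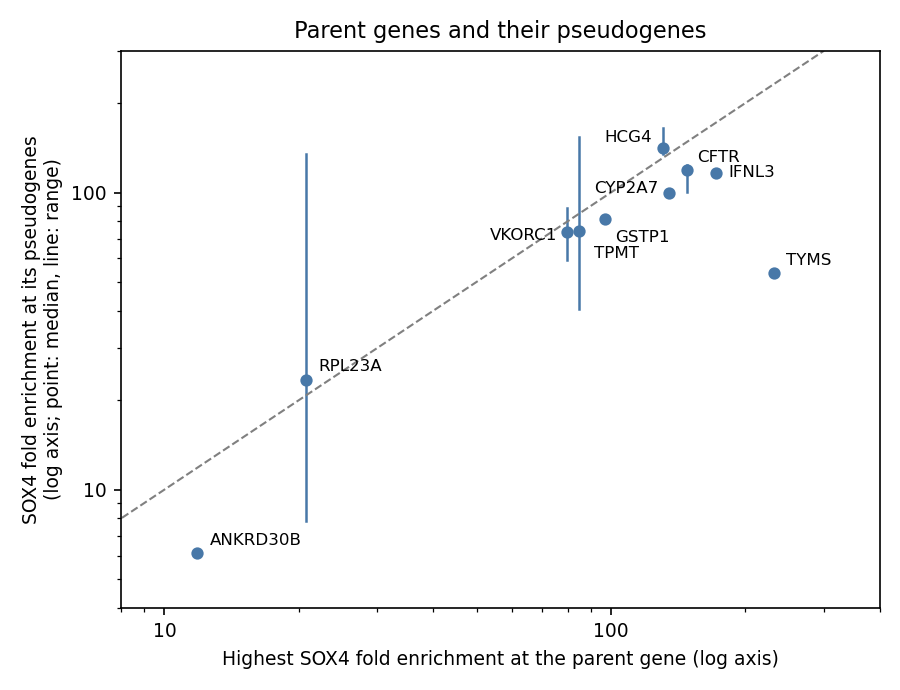
SOX4 fold enrichment at the pseudogenes of 10 families (vertical log axis, point for the median and line for the range) against the highest fold enrichment at the parent gene (horizontal log axis). The dashed line marks equal values, and 8 of the 10 medians lie below it, from ANKRD30B (6.11 against 11.8) to TYMS (53.6 against 232). The RPL23A line reaches 135 through RPL23AP1 under the HLA-F peak.

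STAT6 peaks overlapped 59 of the 200 members (29.5%, 23.6% to 36.2%) and 581 of the 4313 other SOX4 peaks (13.5%, 12.5% to 14.5%). These shares were not matched for width or height. By their medians the members were wider (1346 against 872 bp) and taller (23.7- against 5.75-fold). The overlap carries what the 2 lists share by construction, since a single IgG library was the control for SOX4 and STAT6 alike. The median distance between the paired summits was 38 bp. Members with a STAT6 peak had a median SOX4 enrichment of 83.5-fold and those without had 18.1-fold. The 10 members with the highest SOX4 enrichment all overlapped a STAT6 peak, among them those at MTND4P19, CYP2F2P (2 peaks), HCG4P7, TPMTP1, RPL32P1, HCG4P3 and HCG4P8, at 137- to 183-fold for SOX4 and 12.7- to 18.8-fold for STAT6. Counted by gene, 56 pseudogenes (0.365%) held a STAT6 peak, of which 53 also held a SOX4 peak and 3 did not. Among the RPL23A copies besides RPL23AP1 the SOX4 peak met a STAT6 peak at 3 of 56, and without the family the shared fraction of the members was 38.5%.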

How the data were processed

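CUT&RUN was carried out in Hep3B cells with 1 library each for SOX4, STAT6 and IgG. Per the labels, the authors used BWA, Partek and build hg38, and the study's methods give paired-end reads of 150 bp. Peaks were called within Partek Flow, and the calling algorithm, its threshold and the placement of reads with several matches are not given in the sources used here. For each peak the authors deposited the positions, the fold enrichment (a ratio over IgG), its significance as −log10 p and as −log10 q, and an unused display score. The lowest deposited −log10 q for SOX4 was 1.31. Read depth is unknown.

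Peaks were intersected (1 bp or more) with the RefSeq gene table of GRCh38.p14, which has no exons, no strand and no sequence of pseudogenes. The table lists 59716 genes on chromosomes, and 718 of them (164 pseudogenes outside HNRNPA1) belong to other sequences of a chromosome and were left out. Parent names were read from symbols before P and a number. A pseudogene with several peaks has the fold enrichment of the highest. Shares have Wilson 95% intervals. A share of 0 is given with the limit of 3 counts. On simulated data the intersection found 200 of 200 planted peaks.

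Families were named by rule, namely the 10 with the most copies holding a peak, the 10 highest members, the 10 highest with a STAT6 peak, which were the same peaks, and the 10 highest parents. CYP and its subfamilies, HLA, HCG4, MIC, TSPY, RPL23A alone and the TPMT to CFTR set were added after the values were seen. So were the lists of SLC genes, of UGT, ABC, SULT and CES genes, and of ribosomal proteins other than RPL23A. The single genes outside the rule, including the edge cases and the remaining low members, were also added then. Some items of these rules are not reported here. The members and lists were chosen with earlier results of these data known. Alternatives were minimum values of 5 for −log10 q and for fold, the summit inside the pseudogene, every biotype of pseudogene, chromosomes 1 to 22 and X, peaks without a protein-coding gene, peaks without an HNRNPA1 pseudogene, symbols that name a parent, summits within 200 bp, looser family names and pseudogenes under one peak counted once. Python 3.11.15 with numpy 2.4.6, scipy 1.17.1, pandas 2.3.3 and matplotlib 3.10.9 was used.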

Additional observations from a re-analysis of the deposited data

How the results depend on the processing

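Over 7 results and 51 alternative values, 41 stayed within the interval of the value reported, or within 1.5 times it for counts, and 10 did not. The share of pseudogenes with a peak (1.25%) became 1.05% at a fold of at least 5, 0.880% with the summit inside the pseudogene, 0.991% for peaks that touch no protein-coding gene and 0.885% without the RPL23A family. The median fold (23.7) became 28.6 at a fold of at least 5. The share with a STAT6 peak (29.5%) became 23.5% with summits within 200 bp and 38.5% without RPL23A. The share with a peak at the parent (78.0%) became 88.6% at a fold of at least 5 and 48.8% without RPL23A. Families with at least 2 copies holding a peak (12) became 7 with the summit inside. The alternatives without RPL23A and the one keeping genes of other sequences (202 peaks, 1.25% of pseudogenes) were chosen after seeing the data. No paired analysis was possible because there was 1 library for SOX4 and 1 for STAT6. The unknown depth and the unknown placement of reads that match several copies limit every level given for a family of similar copies.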
